A study of Mus musculus with 16 samples.

Results

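The 9 genes described here code for proteins that build, compact or maintain myelin: Mbp, Mog, Mag, Mobp, Cnp, Mal, Cldn11, Aspa and Opalin. They were taken by symbol from the 32285 genes of the deposited tables, where all 9 were found, and were read in 147873 hippocampal nuclei that had at least 500 unique molecular identifiers (UMIs, each standing for 1 captured RNA molecule), at least 300 genes and at most 5% mitochondrial UMIs. The nuclei came from 16 libraries of hippocampus from female mice aged 9 months, 4 libraries in each of 4 groups. The groups were Ch25h+/+ without tau (Ch25h+/+ Tau-), Ch25h+/+ with tau (Ch25h+/+ Tau+), and the corresponding mice labelled Ch25h-/- (Ch25h-/- Tau- and Ch25h-/- Tau+). Ch25h codes for cholesterol 25-hydroxylase, the enzyme that makes 25-hydroxycholesterol. The tau allele, its promoter, the way Ch25h was deleted and the strain are not given in the sources used here. Ch25h itself, read as a check of the labels, gave 8 to 36 UMIs per library in Ch25h+/+ mice, 136 in all, and 10 to 31 per library in mice labelled Ch25h-/-, 176 in all. It was thus not lower in the libraries labelled Ch25h-/-, and because a 3' tag can lie outside a deleted part, the count does not check the deletion. Every difference by Ch25h below is therefore one between libraries as labelled.

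Myelin is the stack of membrane that oligodendrocytes wrap around axons. Oligodendrocyte precursors leave the cell cycle, pass through a short premyelinating stage and then switch on the myelin genes, under transcription factors that include SOX10 and MYRF. MBP holds the cytoplasmic faces of the membrane together, and MOBP is another protein of compact myelin. CNP is a phosphodiesterase that keeps cytoplasmic channels open in the sheath, and MAL is a tetraspan protein that sorts lipids and proteins to the membrane. CLDN11 forms the tight junctions of the sheath, MAG lies on the membrane that faces the axon, MOG on the outermost face, and OPALIN is a glycoprotein of the oligodendrocyte membrane. ASPA is an enzyme that splits N-acetylaspartate and so frees acetate for lipid synthesis. The Mbp locus also gives rise to golli transcripts from an upstream promoter, which are found in some neurons, and the counts here are per gene and do not separate transcripts.

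In GRCm38 Mal is at chr2:127633226-127656695, Cldn11 at chr3:31149920-31164324, Mag at chr7:30899176-30914873, Mobp at chr9:120149707-120181484, Aspa at chr11:73304992-73329596, Cnp at chr11:100574904-100591729, Mog at chr17:37010743-37023398 and Opalin at chr19:41061710-41077113. Cnp is the only member that overlaps another annotated gene, Dnajc7 on the opposite strand, so that without a statement of strand in the counting its UMIs carry that reservation.

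RefSeq promoters (GRCm38.p6) were matched for 8 of the 9 members, and Mbp was left out before the matching. The 250 bases before each start were searched on both strands for CTGGCAC or CTGGTAC, letters of the MYRF motif, and for ACAAAG or ACAATG, letters of the SOX motif. Mag has 3 promoters in the table, of which 2 hold letters of both motifs and 1 of neither, and the other members matched have 1 each. The first pair was present in a promoter of 3 members (Mog, Mag and Cnp) and in 5.93% of all 32851 promoters searched, and the second pair in a promoter of 4 members (Mag, Mobp, Cnp and Opalin) and in 25.2% of all promoters. A match describes the letters in this window and is not evidence of a bound site. The promoters of Mog, Mag and Cnp are shown because they hold the MYRF letters, and that of Mal because it holds neither motif while Mal and Cnp are the members whose levels in mature oligodendrocytes varied most between the libraries. Each run goes 5′ to 3′ from 250 to 51 bases before the start, with the matches in capitals.
Mog, chr17:37023449-37023648, minus strand: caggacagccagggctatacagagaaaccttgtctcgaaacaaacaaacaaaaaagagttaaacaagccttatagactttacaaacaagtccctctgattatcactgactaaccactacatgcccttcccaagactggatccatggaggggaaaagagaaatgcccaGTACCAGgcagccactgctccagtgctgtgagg
Mag, chr7:30914914-30915113, minus strand: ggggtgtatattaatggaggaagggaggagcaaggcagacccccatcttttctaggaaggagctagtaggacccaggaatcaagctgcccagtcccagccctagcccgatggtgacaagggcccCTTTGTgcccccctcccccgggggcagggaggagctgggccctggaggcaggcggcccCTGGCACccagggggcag
Cnp, chr11:100574689-100574888, plus strand: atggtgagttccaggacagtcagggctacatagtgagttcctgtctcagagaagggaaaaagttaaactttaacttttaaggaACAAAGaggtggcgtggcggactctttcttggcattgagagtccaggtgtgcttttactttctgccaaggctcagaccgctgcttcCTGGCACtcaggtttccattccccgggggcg
Mal, chr2:127656746-127656945, minus strand: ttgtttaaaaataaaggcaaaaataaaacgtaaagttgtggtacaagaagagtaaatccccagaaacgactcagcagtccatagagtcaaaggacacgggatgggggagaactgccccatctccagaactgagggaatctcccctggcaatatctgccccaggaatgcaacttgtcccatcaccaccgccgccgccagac
The MYRF letters began 83 bases before the start in Mog, 68 in Mag and 81 in Cnp.

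The libraries held 51270831 to 84870650 UMIs, and 136828 nuclei remained after 11045 called doublets were removed, 7601 to 10567 per library. Of 66 clusters made without the 9 members, 33 were named from marker genes. Mature oligodendrocytes (22581 nuclei, 481 to 1961 per library) had all 18 of their markers at least 2-fold above the other nuclei, oligodendrocyte precursors (OPCs, 3742 nuclei, 158 to 360 per library) all 12, and newly formed oligodendrocytes (239 nuclei, 4 to 40 per library) had 15 of 16. Of the newly formed cluster 28.87% of the nuclei were called doublets and removed, against 1.07% of the mature and 2.09% of the OPC clusters. Pairs of libraries, of the same group or not, shared 10 to 40 cell barcodes, at most 0.465% of the nuclei of the smaller library. Levels summed over all nuclei of a library were set against the mean of its group, which removed differences between groups. On the leading component of these deviations, 36.57% of their variance, replicates 1 and 2 of every group lay apart from replicates 3 and 4. The labels name no batch, so these are called library set 1 and library set 2, a division seen in the data. The labels also do not say that libraries of a group came from separate animals, and p-values measure the spread between these libraries.

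In OPC nuclei the members were close to absent, and their levels summed over newly formed oligodendrocytes were very different fractions of the mature level. Mbp (GRCm38 chr18:82475146-82585637) gave 37.4, 56.8 and 70.6 CPM (UMIs scaled to a common library total) in OPCs (lowest, median and highest of the 16 libraries), 1158, 4771 and 7891 CPM in newly formed oligodendrocytes, and 4361, 4663 and 5177 CPM in mature ones. The newly formed and mature ranges of Mbp overlapped, and 8 of 16 libraries, 6 of them with tau, had the higher level in newly formed nuclei. Aspa, by contrast, gave at most 3.35 CPM in OPCs, 0, 126 and 299 CPM in newly formed nuclei, and 1115, 1389 and 1613 CPM in mature nuclei. Its newly formed and mature ranges were far apart. These levels are sums over the nuclei of a class and do not give the share of nuclei that held a gene. With every nucleus thinned to an equal number of UMIs, Mbp was found in 53.97% of newly formed and 88.1% of mature nuclei. No member was then found in 38.9% of newly formed and 0.50% of mature nuclei. A level of Mbp near the mature one is thus that of the class, not of each newly formed nucleus.

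Set against the mature level of the same library, the median newly formed level was 100% for Mbp (22.7 to 178%), 86.2% for Mobp (0 to 179%), 74.99% for Cnp (20.3 to 157%) and 72.7% for Mag (7.43 to 106%). Next came Cldn11 at 61.9% (30.3 to 112%), Opalin at 45.7% (0 to 125%) and Mog at 37.7% (2.17 to 81.4%). Mal at 23.7% (0 to 77.2%) and Aspa at 9.38% (0 to 26.0%) were the lowest. The order of these medians was not the same in every group: over the 8 libraries without tau Cnp (73.2%) stood above Mobp (65.3%), and in Ch25h-/- Tau- Mag (90.8%) and Cnp (75.99%) both stood above Mobp (49.3%). Neighbours in this order overlapped widely across libraries, whereas Mbp and Aspa did not overlap except for the Mbp value of 1 library. That library, replicate 4 of Ch25h-/- Tau-, had 13 newly formed nuclei and the lowest or joint lowest fraction for 8 of the 9 members. With all libraries pooled the fractions were 115% for Mbp, 45.4% for Mog, 22.7% for Mal and 12.5% for Aspa. With called doublets kept in their class, a setting added after the data were seen, the medians were lower for all 9 members, at 97.6% for Mbp, 64.8% for Mobp, 53.2% for Mag, 15.1% for Mal and 6.71% for Aspa. Mbp was still the highest and Aspa the lowest, and Cldn11 (54.7%) then stood above Mag.

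These fractions pool 4 groups, and with the 2 Ch25h genotypes pooled the median fraction of each of the 9 members was higher over the libraries with tau. Within genotypes this did not hold for Mag, whose median in the mice labelled Ch25h-/- was 90.8% without tau and 61.0% with tau. With called doublets kept, these 2 medians of Mag were 54.1% and 53.7%. In mean CPM, Mag was lower with tau in those mice (702 against 773), and Cnp was lower with tau in Ch25h+/+ (205 against 213) and in the mice labelled Ch25h-/- (149 against 168). Mbp gave 3407, 3749, 4694 and 4311 CPM in Ch25h+/+ Tau- (replicates 1 to 4) and 6946, 5889, 4772 and 7891 CPM in Ch25h+/+ Tau+, which did not overlap. In the mice labelled Ch25h-/- it gave 4057, 4752, 6878 and 1158 CPM without tau and 5467, 4770, 5769 and 5389 CPM with tau, which overlapped. As a fraction of the mature level of the same library its median was 88.4% over the 8 libraries without tau and 121% over the 8 with tau. The corresponding medians were 65.3% and 116% for Mobp, 28.4% and 55.7% for Mog, 12.5% and 35.2% for Mal, and 3.46% and 15.7% for Aspa. For Cnp they were closer, at 73.2% and 76.2%. Beside Mbp in Ch25h+/+, Aspa and Opalin in mice labelled Ch25h-/- were the members whose tau groups did not overlap, both on few UMIs (5 and 9 without tau). That is 1 of 9 members in Ch25h+/+ and 2 of 9 in Ch25h-/-, where 4.76% and 2.17% of the 1889 genes with at least 100 UMIs in these nuclei had every library with tau above every library without it. These differences were not tested: a fit was to be made where at least 12 libraries, 3 or more per group, held 10 newly formed nuclei, and 9 did, with 1 in the thinnest group.

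In OPCs the median level was 7.40% of the mature level for Cnp (4.22 to 14.2%) and between 0.132% (Aspa) and 1.59% (Mal) for the other 8 members. Cnp was the only member whose lowest library in OPCs exceeded the highest OPC library of every other member in these fractions. This level was not particular to OPCs. The Cnp fraction was 8.71% in astrocytes (4.46 to 11.9%), 11.3% in microglia (4.56 to 22.4%) and 4.86% in DG granule neurons (2.60 to 7.40%), all overlapping that of OPCs. These stage values are descriptions without a test, since the classes were drawn from the same nuclei. The number of newly formed nuclei limits them: they rest on 160 UMIs for Mal, 173 for Cnp and 188 for Aspa in all libraries together, beside 5802 for Mbp.

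**Figure D1:**
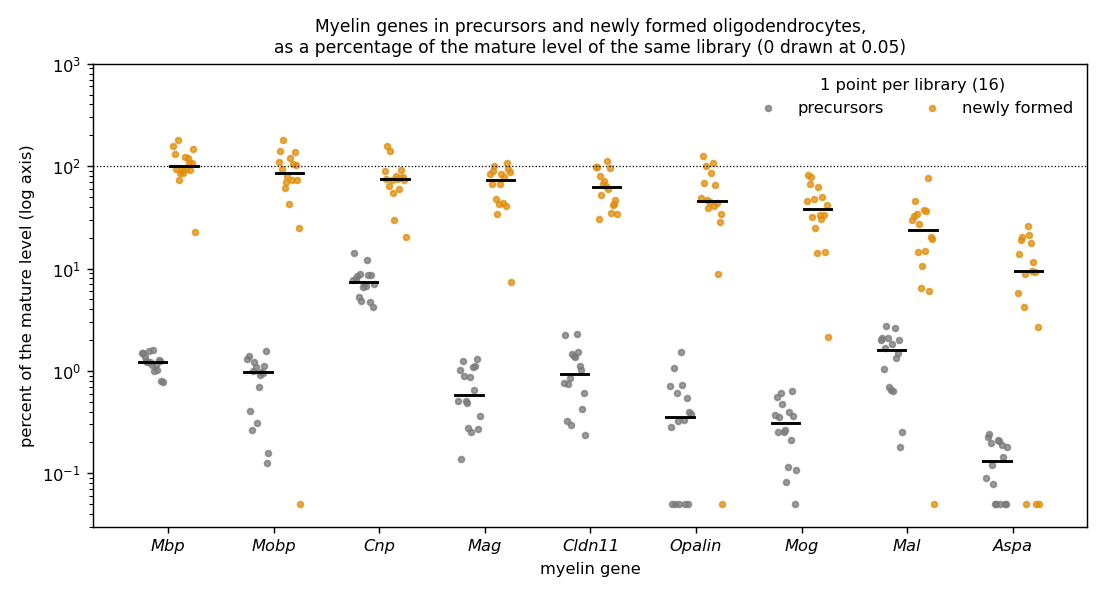
Level of each myelin gene in OPCs (grey) and newly formed oligodendrocytes (orange) as a percentage of the level in mature oligodendrocytes of the same library, on a log axis, with 1 point per library, lines at the medians and levels of 0 drawn at 0.05. The newly formed medians run from 100% for Mbp to 9.38% for Aspa, and the OPC medians from 7.40% for Cnp to 0.132% for Aspa.

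Counted per nucleus, the members were seen together rather than singly in mature oligodendrocytes. A mature nucleus held UMIs of a median of 6 of the 9 members, a newly formed nucleus of 3 and an OPC nucleus of 0. All 9 were seen in 812 of 22581 mature and 27 of 239 newly formed nuclei. No member was seen in 0.031% of mature and 13.8% of newly formed nuclei. The members made up 1.11% of UMIs in mature nuclei (median of 16 libraries, 1.03 to 1.34%), 0.838% in newly formed nuclei (0.1496 to 1.34%) and 0.0115% in OPCs (0.0064 to 0.0153%).

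Since depth differed between classes, each nucleus was also thinned to 500 UMIs, which left out none. Mbp was then found in 88.1% of mature nuclei (95% Wilson interval 87.6 to 88.5%), Aspa in 48.9%, Mog in 45.04% and Mag in 41.8%. Mobp followed with 39.3%, Mal with 27.4%, Cldn11 with 20.5%, Opalin with 17.9% and Cnp with 11.4% (11.004 to 11.8%). In newly formed nuclei Mbp was found in 53.97% (47.6 to 60.2%), Mag in 19.2% and Aspa in 3.35% (1.71 to 6.46%), the lowest share of the 9, with that of Mal (3.77%) next to it and within its interval. Granule neurons of the dentate gyrus (DG), which do not make myelin, gave 4.48% for Mbp, 0.68% for Cnp and at most 0.22% for the other members, which is the background of free RNA and of any own expression. Without thinning the shares were 99.0% for Mbp and 30.1% for Cnp in mature nuclei at a median of 1549 UMIs, and 39.9% and 6.96% in DG granule neurons at a median of 5751 UMIs. Intervals cover counting error only.

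Class means were compared over 13 named classes, with Cajal-Retzius cells left out. Genes whose mean level was much like the mean of the members included Tprn (Pearson r = 0.966 on log2(CPM + 1)), Ermn (0.965), Prima1 (0.963) and Tnni1 (0.962). Ermn codes for a cytoskeletal protein of oligodendrocytes. The 13 points share libraries and differ in depth, so r is a description.

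In the clustering without the members, the class of mature oligodendrocytes was made up of 2 clusters, and Opalin and Mal were the members that differed most between them. When the members were among the clustering genes, the class was 1 cluster (22821 nuclei, doublets included), so the split depended on the clustering. Cluster 1 (18571 nuclei, median 1477 UMIs) was led by Slc13a1, Il33, Tnni1 and Tspan2, and cluster 9 (4010 nuclei, median 1935 UMIs, 10.9 to 23.6% of the class per library) by Enpp6, Carns1, Anln and Klk6. Opalin gave 331, 444 and 602 CPM in cluster 1 (lowest, median and highest library) and 128, 203 and 307 CPM in cluster 9. Its ranges did not overlap, and it was lower in cluster 9 in all 16 libraries, with a median log2 difference of -1.04 (-1.42 to -0.71). Mal gave 403, 755 and 1305 CPM in cluster 1 and 208, 459 and 934 CPM in cluster 9, also lower in all 16 libraries (-0.64, -0.95 to -0.32), although its ranges over libraries overlapped. Mbp, Mog and Mobp were slightly higher in cluster 9, by 0.16, 0.19 and 0.20 on the log2 scale, in 15, 16 and 16 of 16 libraries. Mag (0.10), Cldn11 (-0.04), Cnp (-0.10) and Aspa (-0.12) lay between. The clusters were made without the members but from the same nuclei, so these values carry no test.

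**Figure D2:**
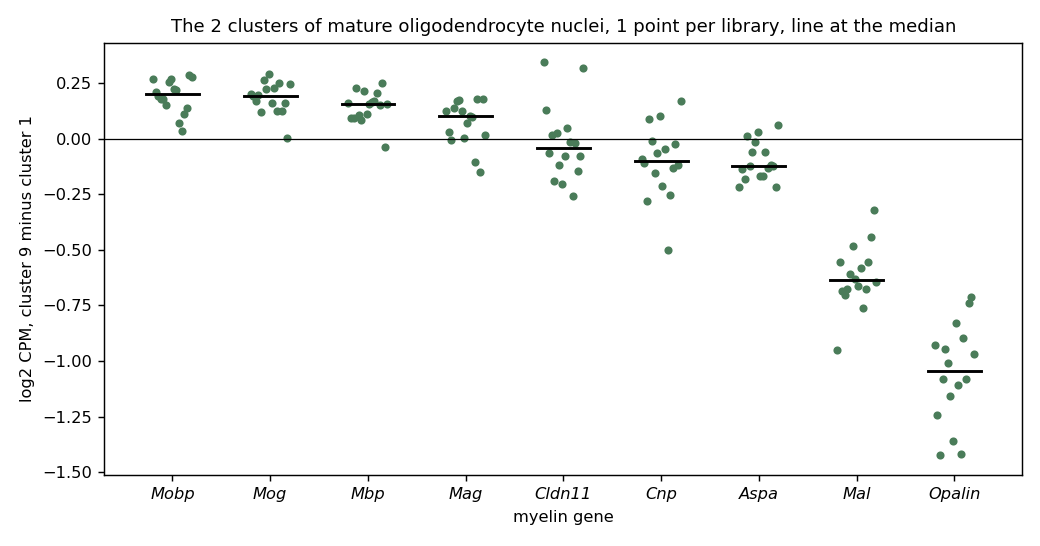
Log2 CPM in cluster 9 minus cluster 1 of the mature oligodendrocyte nuclei for each myelin gene, with 1 point per library and lines at the medians. Opalin (median -1.04) and Mal (-0.64) lie below 0 in all 16 libraries, and the other 7 genes lie within 0.20 of 0 at the median.

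Whether tau or the Ch25h genotype went with another level of the members in mature oligodendrocytes was tested on UMIs summed per library. No member passed in any of the 7 comparisons with edgeR's quasi-likelihood test at an adjusted p of 0.05. Mbp gave 4671, 4361, 5177 and 5003 CPM in Ch25h+/+ Tau- (4803 ± 362, SD, n = 4) and 4409, 4523, 5121 and 4433 CPM in Ch25h+/+ Tau+ (4622 ± 336). It gave 4474, 4381, 4656 and 5092 CPM in Ch25h-/- Tau- (4651 ± 316) and 4454, 5043, 4809.5 and 5074 CPM in Ch25h-/- Tau+ (4845 ± 286). All 4 groups overlapped, and the tau difference over both Ch25h genotypes was a log2 fold change of 0.01 with a 95% interval from -0.13 to 0.14. Mog was as even, with group means of 1224 ± 94.2, 1209 ± 67.2, 1179 ± 54.7 and 1277 ± 85.5 CPM in the same order and a tau difference of 0.05 (-0.07 to 0.18).

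Cnp and Mal, the channel-keeping phosphodiesterase and the sorting protein, had the widest spread. Cnp gave 204, 213, 527 and 415 CPM in Ch25h+/+ Tau-, 188, 213, 229 and 212 CPM in Ch25h+/+ Tau+, 196, 191, 369 and 357 CPM in Ch25h-/- Tau-, and 182, 186, 210 and 240.0 CPM in Ch25h-/- Tau+ (replicates 1 to 4). The high values were those of replicates 3 and 4 of both groups without tau, and the groups overlapped. The tau difference over both genotypes was -0.56 (SE 0.22, interval -1.03 to -0.08), which did not pass (edgeR, adjusted p = 0.415). Mal gave 654, 635, 1226 and 1180.5 CPM, 364, 485, 787 and 731.5 CPM, 489.9, 446, 867 and 941 CPM, and 492, 445, 727 and 775 CPM in the same order of groups. In every group replicates 3 and 4 were above replicates 1 and 2, and the tau difference was -0.40 (-0.95 to 0.15; edgeR, adjusted p = 0.651).

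The tau difference of the other 5 members lay between -0.28 (Mobp, -0.63 to 0.06) and 0.13 (Opalin, -0.08 to 0.35), with Cldn11 at 0.02, Mag at 0.11 and Aspa at 0.11. Over the 7 comparisons, 0 of 9 members were called, where 0.286% of 11894 genes were called for tau over both genotypes, 0.0252% for tau in Ch25h+/+, 0.00841% for tau in Ch25h-/-, and 0.0% in each of the 3 comparisons on the Ch25h label and in the comparison of the tau differences between genotypes. With an unadjusted p under 0.05 there was 1 member, Cnp, for tau over both genotypes and for tau in Ch25h+/+, and none in the other 5 comparisons. Of all genes 10.1% and 6.78% had such a p in those 2 comparisons, so that 1 of 9 members is near the share over all genes, and 3.45 to 7.9% in the other 5. DESeq2 called none of the members either, where it called 0.782% of genes for tau over both genotypes, 0.118% in Ch25h+/+ and 0.101% in Ch25h-/-. In Tau- mice all 9 members were lower in the mice labelled Ch25h-/-, at a median of -0.08 beside 0.00 for all genes. The comparison shares its libraries with that of tau in each genotype, and no member passed. For tau over both genotypes the intervals of Mal, Cnp and Mobp leave room for a change of over 1.5-fold, and those of the other 6 members do not.

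**Figure D3:**
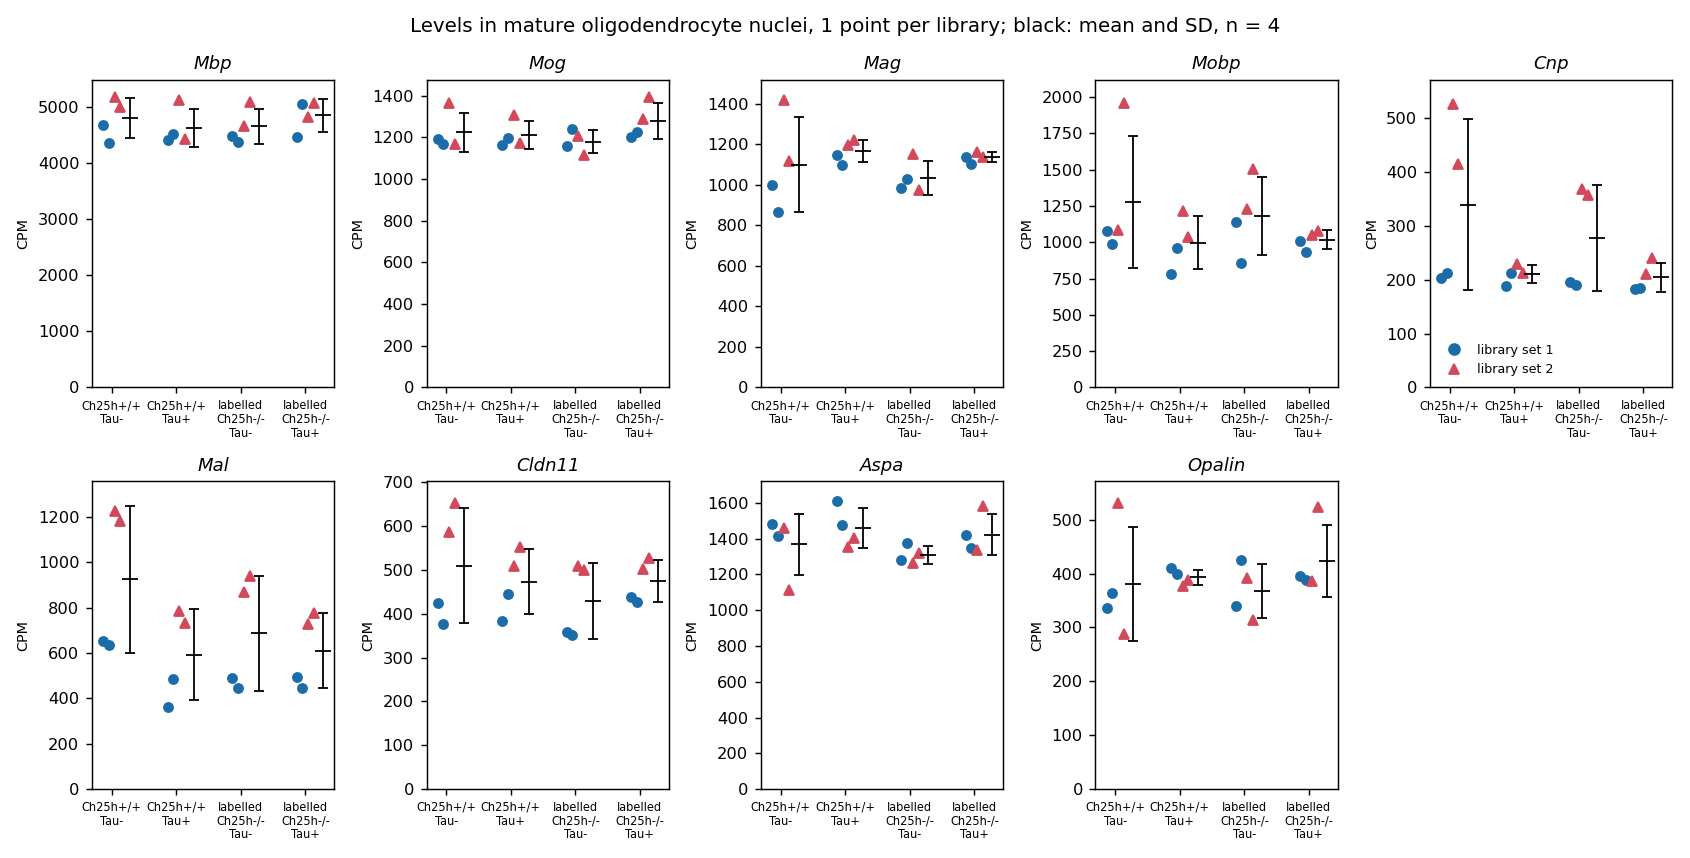
Level of each myelin gene in mature oligodendrocyte nuclei by group, in CPM, with 1 point per library (circles set 1, triangles set 2) and the mean and SD of 4 libraries in black. Cnp stands at 357 to 527 CPM in the 4 set 2 libraries without tau and at 182 to 240.0 CPM in the other 12, while Mbp stays between 4361 and 5177 CPM in all 16.

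Within library sets the picture for Cnp and Mal was different. In set 2 Cnp stood at 357 to 527 CPM without tau and at 210 to 240.0 CPM with tau, with no overlap, and in set 1 at 191 to 213 CPM and 182 to 213 CPM, with full overlap. Fitted in set 2 alone, the Cnp difference was -0.87 (-1.09 to -0.64; edgeR, adjusted p = 0.00292, where 0.0949% of genes were called), and in set 1 alone it was -0.06 (-0.23 to 0.10; adjusted p = 0.861). In Ch25h+/+ alone, Mal was called lower with tau in set 1 (-0.62; edgeR, adjusted p = 0.0429, where 0.149% of genes were called) and not in set 2 (-0.64, adjusted p = 0.0791). Cnp was called in set 2 (-1.07; edgeR, adjusted p = 0.0131, 0.121% called) and not in set 1 (-0.08, adjusted p = 0.926). The difference between the sets was itself tested, in a test added after the data were seen, and was -0.81 (SE 0.13; edgeR, adjusted p = 0.0124), 1 of 3 genes called of 11894 (0.0252%). No other member differed between the sets in this test, the next by p being Cldn11 (-0.25, adjusted p = 0.634). In DG granule neurons Cnp stood at 8.94 to 14.2 CPM over all 16 libraries. The library sets were drawn from these same data. The p-values and intervals of fits that use them do not allow for that choice. With the set as a block, the share of all genes called for tau over both genotypes went from 0.286% to 0.984%. With the library set as a block, Mal was lower with tau over both genotypes by -0.38 (interval -0.51 to -0.25; edgeR, adjusted p = 0.00575, where 0.984% of genes were called) and in Ch25h+/+ by -0.64 (adjusted p = 0.00254, 0.0925% called), but in Ch25h-/- its difference was -0.12 (adjusted p = 0.693, 0.0589% called). The mature nuclei were also deeper with tau: the median UMIs averaged 1353.5 and 1512 per library in the groups without tau and 1713 and 1699.6 with tau, and the part of depth in these results was not tested.

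How the members moved among themselves across libraries is given within sets, since the sets lie apart. Among deviations from the group means in mature nuclei, Cnp and Mal had r = 0.63 in set 1 and 0.94 in set 2, Mog and Opalin 0.52 and 0.84, Mobp and Opalin -0.85 and -0.78, and Mobp and Aspa -0.57 and -0.81 (8 libraries each, as descriptions). Within both sets Mobp thus had a negative r with Opalin and with Aspa. These pairs were picked from all pairs of members, and others, such as Mag and Mal (-0.74 and 0.22), changed sign between sets. Replicate 4 of Ch25h+/+ Tau- had the highest Mobp (1960 CPM) and the lowest Aspa (1115 CPM) and Opalin (287 CPM) of all libraries. Its weight in the set 2 values was not tested. The genes most like the mean of the members over all 16 libraries were Scd2 (0.80 and 0.76 within sets), Scd1 (0.74 and 0.89), Krtcap2 (0.30 and 0.87), Slc6a9 (0.28 and 0.79) and Selenos (0.39 and 0.96). Scd1 and Scd2 code for stearoyl-CoA desaturases, which make monounsaturated fatty acids.

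Other genes of the myelin programme in mature oligodendrocytes gave 0 calls as well. Of 18 other myelin proteins 0 were called in any of the 7 comparisons, of 13 genes of myelin lipid synthesis 0, and of 18 tested among 20 regulators of the lineage 0. Of all 11894 genes 0.286% were called for tau over both genotypes and 0.0 to 0.0252% in the other comparisons, so that 0 calls in lists of this size is near the share over all genes. For tau over both genotypes, 6 of the 18 myelin proteins were higher and 12 lower (median -0.07 beside -0.01 for all genes), 7 of 13 lipid genes were higher (0.01), and 8 of 18 regulators were higher (-0.02). Of all genes 48.3% were higher. The myelin proteins with the smallest p were Pllp (0.29, edgeR adjusted p = 0.221), Cd9 (0.30, 0.348) and Tppp (-0.61, 0.352), the last a microtubule-binding protein. The lipid genes Elovl7 (0.16, adjusted p = 0.608) and Cyp51 (0.19, 0.657) did not pass either. Among regulators Nkx2-2, a homeodomain factor of the lineage, came nearest with 28.3 ± 6.67 and 40.2 ± 5.73 CPM without and with tau in Ch25h+/+ and 32.3 ± 4.03 and 45.4 ± 5.18 CPM in Ch25h-/- (SD, n = 4; log2 fold change 0.51, edgeR adjusted p = 0.0607). Sox10 (0.24, adjusted p = 0.457) and Olig1 (-0.29, 0.519) followed.

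In OPCs only Mbp and Cnp had enough UMIs to be tested, and neither was called in any of the 7 comparisons. The share of the 9382 genes called there was 0.213% for tau over both genotypes, 0.0107% and 0.0959% for tau in Ch25h+/+ and Ch25h-/-, 0.0107% for the Ch25h label over both, and 0.0% for the other 3. Mbp stood at 57.3, 68.6, 63.2 and 56.7 CPM in Ch25h+/+ Tau-, 66.6, 67.0, 70.5 and 54.9 CPM in Ch25h+/+ Tau+, 56.8, 54.9, 37.4 and 39.2 CPM in Ch25h-/- Tau-, and 70.6, 50.5, 55.2 and 51.7 CPM in Ch25h-/- Tau+. The 2 lowest values were replicates 3 and 4 of Ch25h-/- Tau-. Over both tau groups Mbp was lower by -0.28 in mice labelled Ch25h-/- (interval -0.55 to -0.02; edgeR, adjusted p = 0.9996). Cnp rested on 5 to 27 UMIs per library. The shares of newly formed oligodendrocytes among named nuclei were 0.149 ± 0.045% and 0.241 ± 0.130% without and with tau in Ch25h+/+, and 0.110 ± 0.035% and 0.289 ± 0.212% in Ch25h-/- (SD, n = 4). The tau difference over both genotypes, 0.135 points, did not pass (2-sided exact permutation test, p = 0.031, adjusted p = 0.217 over 21 comparisons).

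Summed over all nuclei, where fewer cells of a type and less RNA per cell cannot be told apart, most members were higher in tau mice. Mog gave 58.4, 53.0, 49.99 and 43.7 CPM in Ch25h+/+ Tau-, 58.0, 78.5, 67.7 and 80.4 CPM in Ch25h+/+ Tau+, 51.3, 43.8, 20.2 and 21.6 CPM in Ch25h-/- Tau-, and 67.6, 76.9, 85.5 and 96.9 CPM in Ch25h-/- Tau+. In Ch25h-/- the tau groups did not overlap, and replicates 3 and 4 without tau were the lowest of all 16 libraries. In Ch25h+/+ they overlapped by 1 library. Cldn11 gave 22.1, 18.5, 24.0 and 25.5 CPM, 22.1, 32.2, 27.99 and 39.99 CPM, 17.2, 13.5, 9.44 and 10.99 CPM, and 27.2, 28.9, 35.1 and 38.1 CPM in the same order. Its tau groups overlapped in Ch25h+/+ and did not in Ch25h-/-.

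The members differed in whether their tau groups overlapped. In Ch25h+/+ every library with tau lay above every library without it for 3 of 9 members, as for 8.41% of the 21403 genes tested. These were Mag (40.8 to 53.8 CPM without and 60.7 to 86.6 CPM with tau), Aspa (42.6 to 72.5 and 75.8 to 97.8 CPM) and Opalin (11.1 to 19.8 and 19.99 to 27.5 CPM). In Ch25h-/- this held for 8 of 9 members, Cnp being the exception, and for 5.16% of genes. For the Ch25h label in Tau- mice, every library labelled Ch25h-/- lay below every Ch25h+/+ library for 2 of 9 members, as for 0.649% of genes. These were Mal (15.5 to 24.8 CPM against 33.5 to 47.6 CPM) and Cldn11 (9.44 to 17.2 CPM against 18.5 to 25.5 CPM). In Tau+ mice the groups of all 9 members overlapped between the Ch25h labels.

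For tau over both genotypes 6 of 9 members rose, where 4.55% of 21403 genes were called and 3.24% were called higher. Their log2 fold changes were 0.60 for Mbp (SE 0.12; edgeR, adjusted p = 0.0119), 0.81 for Mog (adjusted p = 0.0230), 0.88 for Mag (0.0118), 0.83 for Cldn11 (0.00689), 0.82 for Aspa (0.0148) and 0.89 for Opalin (0.0259). Mobp (0.53, 0.109), Mal (0.46, 0.222) and Cnp (0.14, 0.580) did not pass. The members' median was 0.81 beside 0.00 for all genes. In Ch25h-/- alone 5 of 9 rose (0.584% of genes called, 0.495% higher): Mbp by 0.93, Mog by 1.23, Mag by 1.25, Cldn11 by 1.32 and Aspa by 1.14. In Ch25h+/+ alone 0 of 9 passed (0.112% of genes called), with differences from -0.19 (Mal) to 0.51 (Mag). The difference between these tau effects was positive for all 9, with a median of 0.85, but 0 of 9 passed (edgeR, adjusted p = 0.823 for each, 0.0% of genes called). With an unadjusted p under 0.05 there were 7 members, where 5.95% of all genes had such a p. For the Ch25h label, 0 of 9 passed in Tau+ (0.014% called), in Tau- (0.00467%) or over both (0.028%).

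The share of mature oligodendrocytes among named nuclei moved with these values. It was 17.6 ± 3.30% in Ch25h+/+ Tau-, 20.7 ± 3.49% in Ch25h+/+ Tau+, 12.2 ± 5.85% in Ch25h-/- Tau- and 24.4 ± 2.25% in Ch25h-/- Tau+ (SD, n = 4). Replicates 3 and 4 of Ch25h-/- Tau- had 7.19% and 7.36%. The share and the CPM over all nuclei are both relative, so that the amount of other classes also moves them. In those replicates DG granule neurons gave 1172 and 1576 UMIs of Mbp, against 433 to 972 in the other libraries. Their Mbp level there (90.6 and 97.3 CPM) lay within the range of the rest, so these neurons held more UMIs. Their part in the tau difference was not tested. Over both genotypes the share was 7.64 points higher with tau, which did not pass in a 2-sided exact permutation test adjusted over 21 comparisons (p = 0.0049, adjusted p = 0.103). Among nuclei of 1000 UMIs or more the difference was 8.42 points and passed (exact permutation test, adjusted p = 0.0429). With libraries exchanged only within a library set, a test added after the data were seen, it did not pass (exact permutation p = 0.00926, adjusted p = 0.194). The tau difference was 0.21 points in set 1 and 5.88 in set 2 in Ch25h+/+, and 5.38 and 19.1 in the mice labelled Ch25h-/-. Levels within mature nuclei are those given above, where Mal with the library set as a block and Cnp in set 2 alone were lower with tau.

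Fitted set by set, the counts over all nuclei were unequal, although the difference between sets called no member. In set 1 alone 0 of 9 members passed for tau over both genotypes, with log2 fold changes from 0.03 (Mal) to 0.58 (Cldn11), and in set 2 alone 7 of 9 passed, with Mog at 1.365 and Opalin at 1.43. For tau over both genotypes, in Ch25h+/+ and in Ch25h-/-, the members called were 0, 0 and 0 in set 1 alone (0.629%, 0.0185% and 0.0231% of genes called) and 7, 0 and 7 in set 2 alone (1.3%, 0.0514% and 0.739%). With the library set as a block they were 6, 0 and 7 (7.21%, 0.734% and 1.43%), and with DESeq2 7, 0 and 8 (7.38%, 2.64% and 2.8%). The difference of the tau effect between sets, again tested after the data were seen, called 0 of 9 members (0.028% of genes called). Mog came nearest (0.97, edgeR adjusted p = 0.0699). In Ch25h-/- alone the count of 5 came to 0 without replicate 4 of either Ch25h-/- Tau- or Ch25h-/- Tau+, and to 1 without replicate 3 of Ch25h-/- Tau- or replicates 2 or 3 of Ch25h-/- Tau+. In these 5 fits 0.0786 to 0.162% of genes were called, so that the share over all genes also fell from 0.584%. It came to 2 without replicate 2 of Ch25h+/+ Tau+ or replicates 1, 2 or 3 of Ch25h+/+ Tau- (0.296 to 0.435% of genes called), and to 3 without replicates 3 or 4 of Ch25h+/+ Tau+, replicate 1 of Ch25h-/- Tau+ or replicate 2 of Ch25h-/- Tau- (0.3 to 0.73%). For tau over both genotypes, where 2.59 to 4.63% of genes were called with 1 library left out, Mog did not pass without replicate 4 of Ch25h-/- Tau+ (0.76, edgeR adjusted p = 0.051), nor Opalin without that library or replicates 2 or 4 of Ch25h+/+ Tau+.

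**Figure D4:**
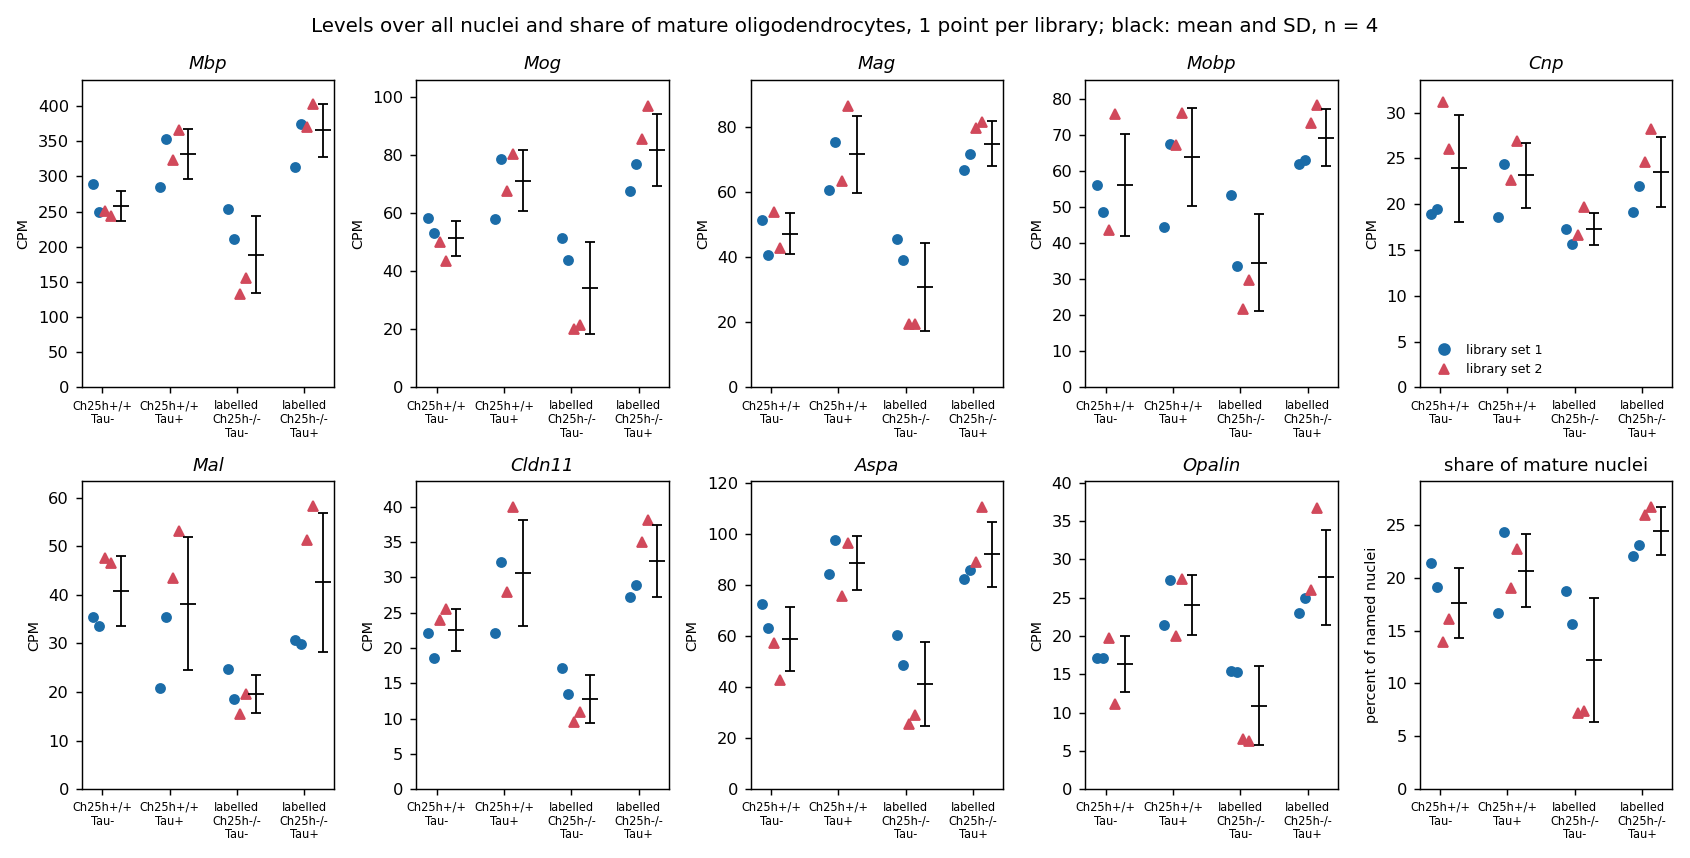
Level of each myelin gene over all nuclei by group, in CPM, and the share of mature oligodendrocytes among named nuclei in percent, with 1 point per library (circles set 1, triangles set 2) and the mean and SD of 4 libraries in black. The 2 set 2 libraries of Ch25h-/- Tau- are lowest in share (7.19% and 7.36%) and in Mog (20.2 and 21.6 CPM), whereas their Cnp (16.7 and 19.7 CPM) lies within the range of the other libraries.

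Outside the oligodendrocyte classes the members were also counted, at low levels, and free RNA in the droplets is a known source of such UMIs. Barcodes under 100 UMIs, taken as free RNA, held the members at 0.145% of their UMIs (median of 16 libraries, 0.0658 to 0.225%), against 0.0126% in DG granule neurons, 0.0136% in astrocytes, 0.0230% in microglia and 0.0548% in fibroblasts. Of all nuclear UMIs, mature oligodendrocytes held 95.1% for Mog, 92.5% for Opalin and for Aspa, 91.4% for Mag, 88.8% for Mobp, 88.1% for Cldn11 and 87.4% for Mal. They held only 75.9% for Mbp and 49.8% for Cnp, of which the 4 neuron classes held 13.95% and 32.1%.

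Free RNA from 1 source keeps its genes in 1 ratio in every class of a library, so each member was set against the sum of the other 8 in a class and in the barcodes under 100 UMIs of the same library. Of 81 pairs of member and class tested, 78 differed in a 2-sided exact sign-flip permutation test over libraries (adjusted over all 81; the smallest p it can give with 16 libraries is 3.05e-05). These ratios are bound to each other: where 1 member makes up most of the members' UMIs, the ratios of the rest are lower by construction. In DG granule neurons Mbp held 13117 of the members' 16976 UMIs, and in fibroblasts Aspa held 2052 of 3477. Lower ratios are therefore not read as differences of their own.

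Cnp was higher relative to the other members than in free RNA in every class tested except fibroblasts. The log2 difference was 1.35 in DG granule neurons (SD 0.44), 2.07 in pyramidal neurons of the CA fields, 1.55 in other excitatory neurons and 2.55 in inhibitory neurons. It was 2.23 in astrocytes, 1.75 in microglia and 2.31 in OPCs, each in 16 of 16 libraries (exact sign-flip test, adjusted p = 6.03e-05), and 2.06 in choroid plexus in 13 of 13. In fibroblasts it was -0.55. Its level in order of the medians was 212 CPM in mature and 157 CPM in newly formed oligodendrocytes, then 31.6 CPM in ependymal cells, 23.3 CPM in microglia, 19.98 CPM in astrocytes, 17.9 CPM in OPCs and in choroid plexus, 13.3 CPM in fibroblasts, 11.4 CPM in DG granule neurons and in inhibitory neurons, 9.76 CPM in CA pyramidal neurons and 9.28 CPM in other excitatory neurons. In vascular cells, with 13 UMIs of Cnp in all, the median was 0. The neuron classes overlapped one another (7.15 to 14.2 CPM over libraries), and so did microglia, astrocytes and OPCs (9.17 to 51.3 CPM). OPCs and astrocytes also overlapped the neurons. Newly formed oligodendrocytes (72.4 to 359 CPM) overlapped the mature class and the highest vascular library (86.6 CPM), and lay above every library of the other classes.

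Mbp was higher relative to the other members in excitatory neurons, by 2.24 in DG granule neurons (SD 0.34), 1.72 in CA pyramidal neurons and 1.71 in other excitatory neurons, each in 16 of 16 libraries. In OPCs the difference was 0.58 in 16 of 16 and in choroid plexus 1.20 in 13 of 13. It was smaller in inhibitory neurons (0.22, 12 of 16) and microglia (0.37, 13 of 16), and in astrocytes it was -0.45. In DG granule neurons Mbp stood at 86.5, 94.7 and 102 CPM (lowest, median and highest library), a narrow range above the 41.8, 47.6 and 57.2 CPM of CA pyramidal neurons and the 18.2, 26.7 and 39.1 CPM of inhibitory neurons. These 3 ranges did not overlap. Other excitatory neurons (43.5, 63.9 and 75.1 CPM) lay between and overlapped the CA pyramidal range.

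Aspa was counted in fibroblasts well above free RNA. It stood there at 137, 312 and 517 CPM on 2052 UMIs, beside a median of 42.7 CPM in barcodes under 100 UMIs and above the 0 to 299 CPM of newly formed oligodendrocytes at the median though not without overlap. Of the fibroblast clusters 20.98% of the nuclei had been called doublets and removed. Relative to the other members it was 5.40 higher than in free RNA (SD 0.97, 15 of 15 libraries tested; exact sign-flip test, adjusted p = 0.000101). In astrocytes it was 2.40 higher in 16 of 16 libraries, at 13.3, 19.8 and 27.4 CPM, and in choroid plexus 0.99 higher in 12 of 13. Mog was higher in inhibitory neurons, by 0.80 in 15 of 16 libraries, on 402 UMIs and at 3.31, 4.74 and 9.83 CPM. Cldn11 in fibroblasts (0.43, 11 of 15 libraries; exact sign-flip test, adjusted p = 0.0531) and Mag in microglia (0.21, 11 of 16; adjusted p = 0.0806) did not pass. The Cldn11 difference passed with barcodes under 50 UMIs (0.60), or without replicate 1 of Ch25h+/+ Tau- (0.52) or replicate 3 (0.53) or 4 (0.50) of Ch25h-/- Tau+. The Mag difference passed without replicate 2 of Ch25h+/+ Tau- (0.27).

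The differences of Mobp, Mal and Opalin were below 0 in all 9 classes tested, from -0.29 (Mobp in astrocytes) to -2.34 (Opalin in DG granule neurons). As these ratios are bound to those of the other members, this is not read as a result about these genes. In OPCs 20 UMIs of Aspa and 21 of Opalin were counted in all 3742 nuclei.

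**Figure D5:**
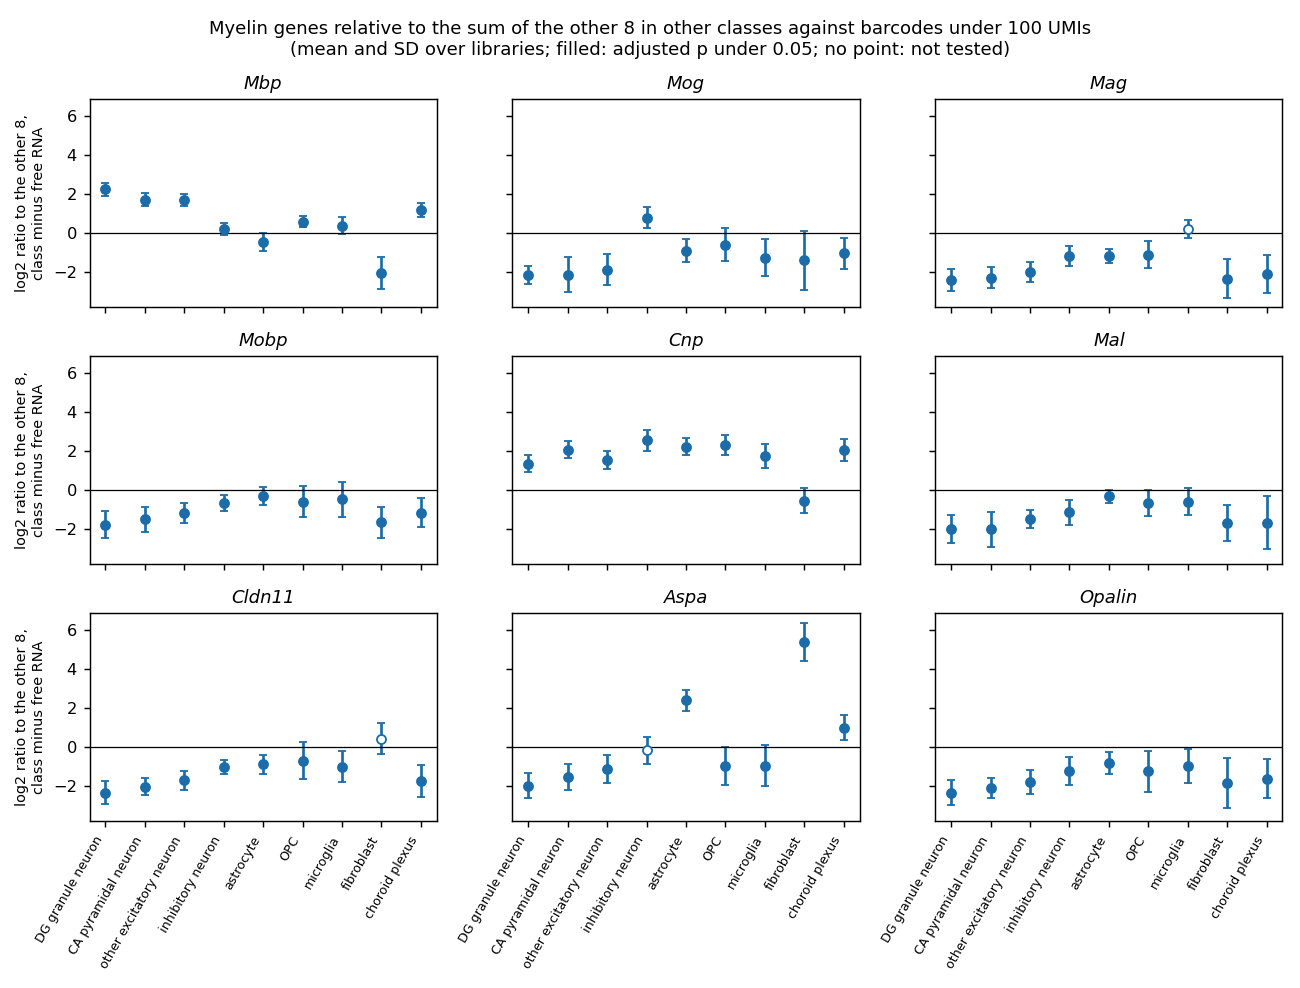
Log2 ratio of each myelin gene to the sum of the other 8 in each class minus that in barcodes under 100 UMIs of the same library, as mean and SD over 13 to 16 libraries, filled where the adjusted p of the exact sign-flip test was under 0.05. Cnp lies above 0 in 8 of 9 classes, Mbp is highest in DG granule neurons (2.24), and Aspa reaches 5.40 in fibroblasts.

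The make-up of the members' RNA in barcodes under 100 UMIs was also set against that in mature nuclei. Relative to the other 8, Aspa was lower in barcodes under 100 UMIs than in mature nuclei of the same library, with a log2 difference of -1.99 (SD 0.30), and so was Mog with -1.18 (SD 0.25), each in 16 of 16 libraries (exact sign-flip test, adjusted p = 5.49e-05). Mal (1.09), Cnp (0.87) and Cldn11 (0.77) were higher, each in 16 of 16 libraries with the same adjusted p. These 5 differences kept their direction and their call with barcodes under 50 UMIs (-1.265, -0.80, 0.17, 1.145 and 0.59 in that order). They also kept both with plateau barcodes, a run of ranks by UMIs well below the nuclei, chosen after the data were seen (-2.37, -1.41, 1.365, 0.68 and 0.79). The plateau median was 89 to 136 UMIs per library in set 1 and 66 to 82 in set 2. Where it was above 100, most plateau barcodes were not among those under 100 UMIs. The barcodes under 100 UMIs thus held most of the plateau in set 2, but not in every library of set 1. As a reference for free RNA they were therefore not alike in the 2 sets. Of the 5, the Mal difference varied most in size. Mag was also higher (0.44, 15 of 16 libraries), and Mobp (0.17) and Opalin (0.22) passed but each lost its call in 1 of those alternatives. Here too the ratios are bound to each other: where Aspa and Mog are lower, the ratios of the rest are higher by construction. The small differences of Mobp and Opalin are therefore not read as their own. Mbp, the gene with most UMIs, did not pass (-0.03; exact sign-flip test, adjusted p = 0.48). With all nuclei in place of mature ones, also chosen after the data were seen, the Cnp difference was 0.10 and did not pass (exact sign-flip test, adjusted p = 0.0964). Aspa (-1.81), Mog (-0.93), Mal (1.18) and Cldn11 (0.88) kept their call, and Mbp passed with -0.28.

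Across libraries the level of the members in neurons was set against that in free RNA. Summed over the 4 neuron classes the members stood at 77.7 to 92.1 CPM, and in barcodes under 100 UMIs at 658 to 2251 CPM. Mbp made up most of the members' UMIs in DG granule neurons (13117 of 16976) and in CA pyramidal neurons (11302 of 16302). The correlations of the sum therefore weigh Mbp most and say little of the other members. Pearson's r was 0.28 (permutation p = 0.289, adjusted p = 0.475) and Spearman's rho 0.30 (permutation p = 0.265, adjusted p = 0.423) over 16 libraries. Without the 2 libraries farthest from the median r was 0.17, and within sets it was 0.42 and 0.28 (n = 8 each, permutation p = 0.297 and 0.479). With the plateau barcodes in their place r was 0.43 (permutation p = 0.0948, adjusted p = 0.253), 0.78 within set 1 (permutation p = 0.018, adjusted p = 0.144) and 0.32 within set 2. The adjustment is over the 8 correlations computed for each measure, and the smallest adjusted p was 0.144 for r and 0.139 for rho. Members were not tested 1 by 1. Replicates 3 and 4 of Ch25h-/- Tau- had the least free RNA of the members (658 and 725 CPM). In DG granule neurons they also had the lowest Mag (1.08 and 1.30 CPM), Mobp, Mal, Cldn11 and Aspa of the 16 libraries. This did not hold for Mbp, Mog, Cnp and Opalin.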

How the data were processed

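Nuclei of mouse hippocampus were sequenced in 16 droplet libraries. The values are UMI counts per gene and barcode as deposited by the authors, aligned to mm10 with Cell Ranger 3.1.0, per the submitters' processing notes. The matrix headers give another Cell Ranger version, and whether counting used introns or strand is not given in the sources used here. The members and gene lists were chosen with earlier results of these data known.

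Nuclei were kept by the limits given in the report. Doublets were called at an expected rate of 0.8% per 1000 nuclei and removed (6.51 to 9.33% per library). Clusters came from 3000 variable genes, 0 of them members, 50 principal components, 20 neighbours and Leiden resolution 1. Clustering with the members kept 99.95% of mature, 99.97% of precursor and 98.33% of newly formed nuclei in the same class, but did not split the mature class into clusters. Deposited counts were summed per library and class and tested with edgeR 4.0.16 (quasi-likelihood, Benjamini-Hochberg over all genes tested, calls at an adjusted p of 0.05), in 1 fit over the 4 groups with 7 comparisons. DESeq2 1.42.0 was an alternative, under R 4.3.3. Ratios of a member to the sum of the other 8 used a pseudocount of 0.5 and classes with at least 10 UMIs of the members in at least 12 libraries. That sum was listed as an alternative reference; it was made the main one, with this limit on UMIs, after results were known, and the first reference and some genes that the naming rule picks are not reported here. Python 3.11.15, numpy 2.4.6, scipy 1.17.1, pandas 2.3.3, igraph 0.11.9 and matplotlib 3.10.9 were used. The edgeR steps were tested on simulated data.

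All 9 members are named. Of the other lists, genes are named where called, or else the 3 with the smallest p for tau over both genotypes, and the 5 genes most like the members over classes and over libraries. Alternatives were other size factors, no filter on low counts, DESeq2, the library set as a block or each set alone, nuclei of 1000 UMIs or more, doublets kept, other free RNA barcodes, and leaving out each library. The plateau barcodes (a run of ranks by UMIs well below the nuclei, with a median of 66 to 136 UMIs per library), the tests between and within library sets, the shares of genes whose groups did not overlap, all nuclei in place of mature ones and doublets kept in the stage values were chosen after seeing the data. Pairs of libraries of a group differed beyond sampling noise (chi-square per degree of freedom 8.8 to 67.9), so they were not copies of one another. Libraries from 1 animal could differ in this way too, so it does not show separate animals. Each library was counted as 1 replicate.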

Additional observations from a re-analysis of the deposited data

Results flagged for a closer look

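In 92 groups of 4 libraries, 6 held a library whose gap to its nearest neighbour took more of the group's range than Dixon's critical value for 4 samples, and chance gives about 1 in 20 groups. In mature oligodendrocytes these were the highest Mbp level in Ch25h+/+ Tau+ (5121 CPM), the highest Mog (1364 CPM) and Mobp (1960.0 CPM) levels in Ch25h+/+ Tau-, and the highest Opalin level in Ch25h-/- Tau+ (524.4 CPM). Over all nuclei it was the highest Mbp level in Ch25h+/+ Tau- (288.7 CPM). Among shares of nuclei it was the lowest OPC share in Ch25h-/- Tau+ (2.629% of named nuclei).

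The tau difference of Cnp in mature oligodendrocytes differed between library sets by -0.8114 on the log2 scale (edgeR, adjusted p = 0.0124), set 2 minus set 1.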

How the results depend on the processing

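No paired analysis was possible because the labels give no replicate numbers and those used here follow accession order. The library sets seen in the data, which do tie libraries across groups, were fitted as a block instead. Among counts and shares, 172 values under other settings stayed on their side and 11 did not, and with 1 library left out 355 stayed and 13 moved. In mature oligodendrocytes 1 member instead of 0 was called for tau in Ch25h+/+ with the library set as a block (Mal), in set 1 alone (Mal, 0.149% of genes called) and in set 2 alone (Cnp, 0.121%), and for tau over both genotypes with the block (Mal) and in set 2 alone (Cnp). Over all nuclei the 5 members called for tau in Ch25h-/- became 2 with no filter (0.301% of genes called), 8 with DESeq2, 0 in set 1 alone and 0 to 7 with 1 library left out (0.0786 to 1.02%). The 6 called for tau over both genotypes became 0 in set 1 alone and 4 to 7 with 1 library left out. For the Ch25h label in Tau- 1 instead of 0, Mog, was called in set 2 alone (0.0281% of genes called). The tau difference in the share of mature nuclei was 8.42 points among nuclei of 1000 UMIs or more (exact permutation test, adjusted p = 0.0429). The causes were not tested.

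Directions turned for tau over both genotypes in mature nuclei for Mbp (-0.0107 in set 2 alone, -0.02534 to 0.04645 with 1 library left out) and Cldn11 (-0.07209, and -0.03832 to 0.1068), and in OPCs for Cnp (-0.2167 in set 2 alone, -0.02688 with 1000 UMIs, -0.1436 to 0.1567 with 1 library left out). In low-count barcodes against mature nuclei the Mbp difference turned (0.003849 under 50 UMIs), the Mobp call was lost under 50 UMIs, the Cnp call with all nuclei (0.10) and the Opalin call with the plateau barcodes, and the Mag difference in microglia passed with the plateau barcodes (0.32). Newly formed nuclei, 4 to 40 per library, limit every stage value.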
